A study of Drosophila melanogaster with 3 samples.

Results

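The genes described here are 10 regulators of head and eye patterning in the fruit fly Drosophila melanogaster: oc, ems, btd, cnc, kn, croc, Optix, so, toy and ey. They were chosen by name, out of 13945 protein-coding genes on 6 chromosome arms, and their sites were read from a map of Knirps occupancy. Knirps is a nuclear receptor family transcription factor encoded by the gap gene kni. It was mapped by chromatin immunoprecipitation and sequencing (ChIP-seq) with an anti-GFP antibody in whole embryos of both sexes, 0 to 14 h old, from a transgenic line with GFP fused to the C terminus of Knirps. The 3 biological replicates form 1 group of that genotype, and no second condition or untagged sample was analysed here. A site is the summit of a deposited peak on genome build dm6, and it was given to a gene when it lay in the gene body or within 10 kb of either end. Of the 7129 summits in the authors' optimal list, 41 belonged to the 10 genes, and no summit was shared between any pair of them.

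The early head of the fly is patterned by head gap genes, among them oc, ems and btd, which are expressed in overlapping anterior domains and without which adjoining head segments are lost. The genes cnc, kn and croc act in narrower parts of the head. In eye formation the Pax6 genes toy and ey stand upstream of so, whose homeodomain product works with cofactors to start retinal development, and Optix is a relative of so in the anterior head and eye. All 10 encode sequence-specific transcription factors. The gene kni is also transcribed in an anterior region of the early embryo.

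Optimal summits were present near 9 of the 10 genes and missing near ey. Among all protein-coding genes 59.8% had at least 1 summit by the same rule, so a single summit says little about a gene. The genes ems, cnc and so held 7 summits each, btd 6, oc 4, and kn, croc and Optix 3 each, whereas toy held 1. Thus 8 of the 10 had 3 or more summits, against 25.4% of all genes, and 3 of the 10 had 7 or more, against 4.07%. The 8 include btd, which was the nearest gene for only 1 of its 6 summits, and kn, which was the nearest for none. Each of ems, cnc and so had neighbouring summits no more than 204 bp apart, and with such neighbours joined none kept 7. Optix, with a pair 202 bp apart, then no longer had 3. No share of all genes after joining is given here. Without joining, the median was 3.5 summits for the 10 genes and 1 for all genes. The territories searched (gene body and 10 kb either side) were longer for these genes, with a median of 36.9 kb against 22.2 kb. Of the genes whose territory was longer than the median 67.4% had a summit. Per length, the 10 territories held 1.10 summits per 10 kb, and the 6 arms as a whole 0.532. Whole arms are not gene territories, and the density over the territories of other genes is not given here. Nor is the share of longer territories with 3 or more summits. All 10 genes had a summit in the longer pooled list of 30000 peaks, as had 80.8% of all genes.

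**Figure D1:**
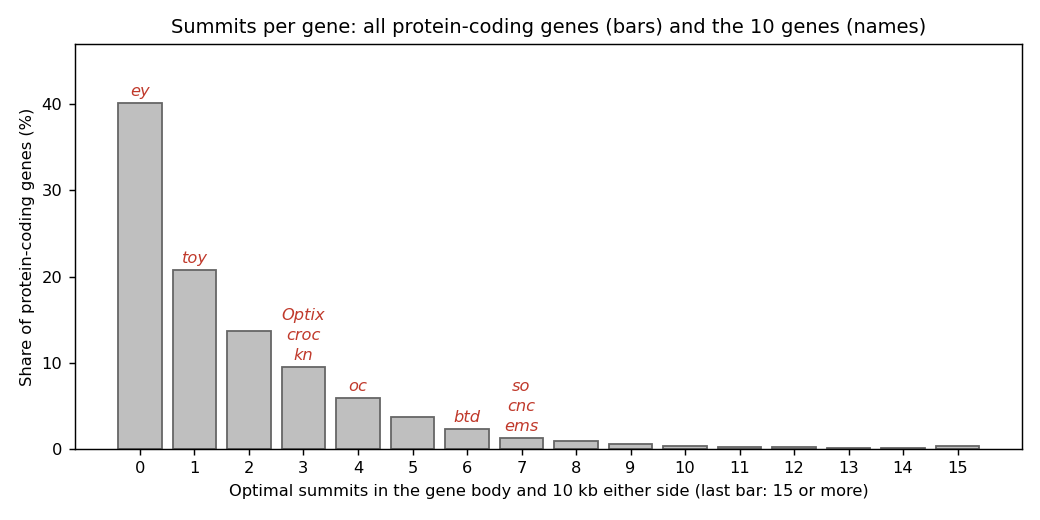
Number of optimal summits in the gene body and 10 kb either side (x axis) and the share of protein-coding genes with that number in percent (bars). The names stand over the bar of their own count, with ey at 0, toy at 1 and ems, cnc and so at 7.

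The peaks at these genes had a median strength near that of the list, with few among its strongest. The strength of a peak over the control is given by the authors' deposited signal value, whose scale no source states. It serves here to describe and rank peaks within a list. Since each sample was whole embryos of mixed age, fewer cells with Knirps at a site and less Knirps per cell cannot be told apart. The 41 summits had signal values from 190.03 to 659 with a median of 278, and the optimal list had a median of 292 and a maximum of 5038. Only 17 of the 41 were among the strongest 3564 of the 7129 optimal peaks, and 5 among the strongest 1782. The strongest 2 lay in an intron of so (signal value 659, rank 571 of 7129) and inside nej, a neighbour of btd (signal value 648, rank 600).

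Replicates differed in how much of this they recovered. Recovery of an optimal summit in a replicate required a summit no more than 100 bp away in the strongest 7129 of its peaks, and such a summit is called found. Replicate 1 held 35 of the 41 summits (85.4%), replicate 2 held 32 (78.0%) and replicate 3 held 25 (61.0%), a mean of 74.8% ± 12.5 (SD, n = 3). Over all optimal peaks the mean was 77.9% ± 3.03 (SD, n = 3). The lowest share was thus in replicate 3, both for these genes and over all peaks, where it was 75.1%. All 3 replicates held 18 of the 41 summits (43.9%), against 52.1% of all optimal summits, while 16 were recovered by 2 replicates, 6 by 1 replicate and the remaining 1 by no replicate. With a replicate left out, an optimal summit was kept if it was found in both of the others. By this rule 20 summits were kept without replicate 1, 22 without replicate 2 and 28 without replicate 3, against 18 when all 3 were required, so the requirement itself lowers these counts from 41. The share found in both remaining replicates was 68.3% when replicate 3 was left out. Of the 10 genes, 7 had at least 1 summit found in all 3 replicates, against 44.9% of all genes, and kn, toy and ey had none. Because the same replicates were pooled to make the optimal list, recovery is not an independent check. Numbers of reads were not used here, so the depth behind each list is unknown.

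**Figure D2:**
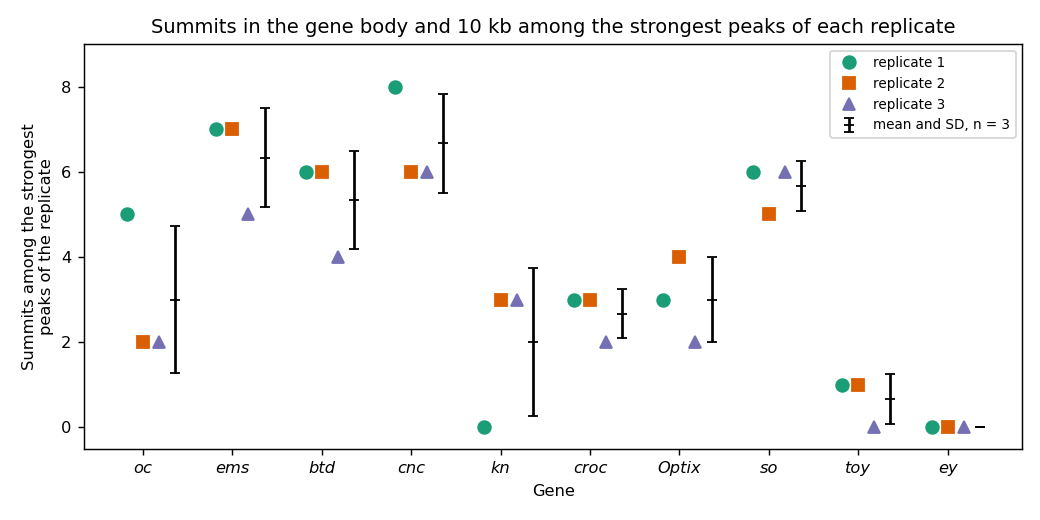
Number of summits in the gene body and 10 kb either side among the 7129 strongest peaks of each replicate (coloured symbols), with the mean and SD over 3 replicates (black), for each gene. The values of ems, btd, cnc and so lie at 4 or above in every replicate, kn has 0 in replicate 1 and 3 in the others, and ey has 0 throughout.

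The gene oc (FBgn0004102, chromosome X, 8630159 to 8650681, minus strand) encodes the homeodomain protein Orthodenticle, a head gap gene product that is also needed for the ocelli. It held 4 summits, and oc had the nearest start site for each. The strongest lay 342 bp upstream of a start site of oc (signal value 324, rank 2892) and ranked 2290, 3186 and 4717 in replicates 1 to 3. The next lay in an intron, 5946 bp downstream of the nearest start site (signal value 273, rank 3978), with ranks of 3650, 4252 and 4912. These 2 were found in all 3 replicates. A further pair lay 5184 and 2736 bp past the 3' end, with signal values of 232 and 190.03, and both were among the strongest 7129 peaks in replicate 1 alone. The number of strong summits, those among the strongest 7129 peaks of a replicate, was 5, 2 and 2 in replicates 1 to 3. Without any 1 replicate, 2 of the 4 summits were found in both others. The 2 summits found in all replicates are printed here as 201 bases on the plus strand of dm6, centred on the summit, because the upstream one holds a run of the letters GAGAG and the intronic one a match to AGAGCA. Here and in the other sequences, capitals mark matches on either strand to any of the 8 short words searched. They were the core AGAGCA of the known preference of Knirps, CAGGTA for the early activator Zelda, GAGAG for the GAGA factor and TAATCC for Bicoid-class homeodomains. Words of families of the 10 proteins were TAAACA for forkhead, TGATAC for the sine oculis family, CCCNNGGG for COE and GGGCGG for Sp proteins. The sequences are from the RefSeq copy of the Release 6 assembly.
oc upstream of the start site, chrX:8650923-8651123: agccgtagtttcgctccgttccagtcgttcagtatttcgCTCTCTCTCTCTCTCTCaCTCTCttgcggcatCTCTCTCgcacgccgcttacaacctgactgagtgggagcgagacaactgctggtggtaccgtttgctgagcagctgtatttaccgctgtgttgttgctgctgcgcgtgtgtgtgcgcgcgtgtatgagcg
oc intron, chrX:8637130-8637330: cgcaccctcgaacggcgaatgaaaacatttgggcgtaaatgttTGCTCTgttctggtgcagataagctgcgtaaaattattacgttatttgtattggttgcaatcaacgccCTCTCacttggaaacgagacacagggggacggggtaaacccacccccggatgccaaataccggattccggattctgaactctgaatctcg

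The gene ems (FBgn0000576, chromosome arm 3R, 13901853 to 13904620, plus strand) encodes the homeodomain protein Empty spiracles, needed for head segments and for the openings of the posterior spiracles. It is among the shortest of the 10 genes and had the densest summits, 3.07 per 10 kb of territory, with ems as the gene of the nearest start site in all 7 cases. The summits spread over the flanks, with 5 downstream of the gene, 2 upstream and none in its body. The strongest lay 4656 bp past the 3' end (signal value 451, rank 1440) and ranked 1342, 1117 and 2337 in replicates 1 to 3. Its neighbour 204 bp away had a signal value of 287, and the other 3 downstream summits stood 2930, 7563 and 9207 bp past the 3' end with signal values of 290, 224 and 296. The summits at 2930 and 9207 bp were found in all 3 replicates, as was the strongest. Upstream, a summit 160 bp before the start site had a signal value of 278 and a rank of 3608 in replicate 1 and 3639 in replicate 3, with no summit within 100 bp in replicate 2. The other upstream summit, 4451 bp away, was weaker (signal value 199). The replicates held 7, 7 and 5 strong summits, and 3, 4 and 5 optimal summits were found in both others without replicates 1, 2 and 3. The strongest downstream site, which holds none of the words searched, and the site before the start are shown.
ems downstream, strongest, chr3R:13909176-13909376: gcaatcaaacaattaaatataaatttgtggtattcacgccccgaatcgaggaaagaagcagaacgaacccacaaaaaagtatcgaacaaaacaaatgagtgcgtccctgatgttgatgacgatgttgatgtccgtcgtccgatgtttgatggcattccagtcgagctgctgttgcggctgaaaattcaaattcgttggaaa
ems before the start site, chr3R:13901593-13901793: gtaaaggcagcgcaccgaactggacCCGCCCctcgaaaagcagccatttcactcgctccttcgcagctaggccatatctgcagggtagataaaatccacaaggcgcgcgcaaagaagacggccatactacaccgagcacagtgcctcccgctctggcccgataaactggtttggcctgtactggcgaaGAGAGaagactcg

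The gene btd (FBgn0000233, chromosome X, 9694186 to 9697558, plus strand) encodes Buttonhead, a zinc-finger protein of the Sp family that acts as a head gap gene product. Of the 6 summits in its territory, 5 lay 6418 to 9396 bp upstream, around the start sites of nej, the fly gene for the coactivator CBP. The strongest of these was 167 bp upstream of a start site of nej (signal value 648, rank 600) and ranked 390, 448 and 1591 in the replicates. The other 4 had signal values from 297 to 441. Only the weakest of the 6 was nearest to btd itself, 129 bp upstream of its start site (signal value 241, rank 4872). It ranked 4503 and 3948 in replicates 1 and 2 and 8992 in replicate 3, below the strongest 7129 there. With a territory of 5 kb, this single summit remained for btd. Without replicate 1 or 2, 3 of the 6 summits were found in both others, and without replicate 3 all 6. The summit before the start of btd and the intronic summit of nej, the only one near btd with the letters AGAGCA, are shown.
btd before the start site, chrX:9693957-9694157: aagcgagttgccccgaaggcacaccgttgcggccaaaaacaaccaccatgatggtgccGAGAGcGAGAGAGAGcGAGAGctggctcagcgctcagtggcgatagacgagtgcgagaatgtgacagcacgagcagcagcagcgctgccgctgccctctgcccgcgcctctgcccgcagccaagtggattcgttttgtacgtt
btd territory, intron of nej, chrX:9684690-9684890: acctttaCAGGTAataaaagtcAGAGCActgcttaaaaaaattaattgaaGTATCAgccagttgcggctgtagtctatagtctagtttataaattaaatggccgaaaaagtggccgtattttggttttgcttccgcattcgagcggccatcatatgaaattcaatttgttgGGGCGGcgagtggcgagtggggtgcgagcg

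The gene cnc (FBgn0262975, chromosome arm 3R, 23185580 to 23226711, minus strand) encodes Cap-n-collar, a bZIP protein that specifies the mandibular segment and, in another isoform, controls responses to oxidative stress. It is the longest of the 10 genes, and 5 of its 7 summits lay in its body. Start sites of its several transcripts were close to most of them. The strongest lay 203 bp upstream of an internal start site (signal value 379, rank 2089) and ranked 1753, 2478 and 2415 in replicates 1 to 3. An intronic summit 523 bp upstream of another start site was nearly as strong (signal value 377, rank 2109), with ranks of 1804, 2434 and 3472. These 2 were found in all 3 replicates. At the 5' end of the gene, summits 3 bp downstream and 200 bp upstream of the first start site had signal values of 254 and 202. A summit in a 5' UTR (signal value 264) and another in an intron (signal value 207) were each found in 2 replicates. The last, 8979 bp past the 3' end, lay in introns of CG46310 and the potassium channel gene Irk1 (signal value 217). The replicates held 8, 6 and 6 strong summits, and 2, 4 and 5 optimal summits were found in both others without replicates 1, 2 and 3. The upstream site at the 5' end is shown for its run of GAGAG, and the intronic site as one of the strongest at this gene.
cnc upstream of the 5' end, chr3R:23226811-23227011: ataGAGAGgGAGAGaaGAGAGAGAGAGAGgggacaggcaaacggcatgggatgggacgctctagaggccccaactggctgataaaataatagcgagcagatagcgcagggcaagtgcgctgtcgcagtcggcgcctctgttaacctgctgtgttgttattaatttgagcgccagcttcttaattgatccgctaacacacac
cnc intron, chr3R:23201123-23201323: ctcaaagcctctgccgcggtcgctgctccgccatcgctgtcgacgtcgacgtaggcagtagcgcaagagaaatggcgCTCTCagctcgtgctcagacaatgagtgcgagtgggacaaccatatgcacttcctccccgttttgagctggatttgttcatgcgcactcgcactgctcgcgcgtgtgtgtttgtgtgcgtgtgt

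The gene croc (FBgn0014143, chromosome arm 3L, 21474133 to 21476479, minus strand) encodes Crocodile, a forkhead protein needed in the most anterior head and the pharynx. All 3 of its summits had croc as the nearest gene, and none lay in its body. The strongest stood 9635 bp past the 3' end, close to the limit of 10 kb (signal value 353, rank 2416), and ranked 2078, 2802 and 3406 in replicates 1 to 3. A summit 3414 bp upstream of the start site had nearly the same signal value (353, rank 2420) and ranked 1591, 3480 and 5339. Both were found in all 3 replicates. The summit 205 bp upstream of the start site was weaker (signal value 207, rank 6206), and its ranks of 3741, 6582 and 20051 put it below the strongest 7129 peaks of replicate 3. The replicates held 3, 3 and 2 strong summits. The 2 upstream sites are shown, the nearer of which has the longest run of GAGAG among the 41 windows.
croc before the start site, chr3L:21476584-21476784: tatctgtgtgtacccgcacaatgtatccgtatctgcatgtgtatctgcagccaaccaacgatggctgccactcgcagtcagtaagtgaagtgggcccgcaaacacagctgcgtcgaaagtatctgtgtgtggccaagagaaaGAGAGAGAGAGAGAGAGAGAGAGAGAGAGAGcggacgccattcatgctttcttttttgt
croc upstream, chr3L:21479793-21479993: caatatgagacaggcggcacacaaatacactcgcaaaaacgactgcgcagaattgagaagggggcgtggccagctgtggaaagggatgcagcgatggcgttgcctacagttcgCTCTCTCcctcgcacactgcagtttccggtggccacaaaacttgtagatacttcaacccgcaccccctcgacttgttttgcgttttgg

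In the pooled list the strongest summits of the 2 Pax6 genes were the weakest among the 10 genes. In replicate 1, however, the strongest summit of kn (rank 8081) stood below that of toy (rank 6194). Both Pax6 genes lie on chromosome 4. This chromosome carried 26 optimal summits, 0.193 per 10 kb, against 0.532 over the 6 arms, and the part of this in the counts of toy and ey was not tested. The territory of toy (FBgn0019650, 989725 to 1007922, plus strand), which encodes Twin of eyeless, held 1 summit 6677 bp upstream of the gene (signal value 195, rank 6768). The nearest start site was that of fuss, 4559 bp away. Within 100 bp the replicates ranked it 12799, 5594 and 16254, so it was among the strongest 7129 peaks of replicate 2 alone. Replicate 1 held another strong summit in this territory, of rank 6194, within 500 bp of a start site of toy. No pooled summit lay in the body of toy, and the best pooled summit nearest to a start site of toy ranked 7316, just past the end of the optimal list. The gene ey (FBgn0005558, 697689 to 721173, plus strand), which encodes Eyeless, had no optimal summit. Its strongest pooled summit was intronic, 5560 bp downstream of the nearest start site (712729 to 713248, signal value 105, rank 14624). Within 100 bp of it, replicates 1 and 2 had summits of rank 17775 and 13325. The nearest summit of replicate 3 was 12055 bp away. Anywhere in the territory of ey, the strongest summits ranked 10021, 13325 and 7975 in the replicates, all below the strongest 7129.

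The gene so (FBgn0003460, chromosome arm 2R, 7419350 to 7434872, plus strand), which encodes the homeodomain protein Sine oculis, held 7 summits in 2 clusters. The first comprised 4 intronic summits between 7429428 and 7430885. It included the strongest of all 41 (7429299 to 7429578, signal value 659, rank 571), which ranked 684, 694 and 507 in replicates 1 to 3. The nearest start site to these 4 was that of CG11145, 835 to 2292 bp away, inside so. The other 3 lay 198 to 2155 bp upstream of the start site of so. The strongest upstream summit (signal value 438, rank 1539) ranked 1300 and 1493 in replicates 2 and 3, and replicate 1 had a summit of rank 1678 beside its neighbour 199 bp away. The summit at 198 bp had a signal value of 202 and was found in replicate 1 alone. The replicates held 6, 5 and 6 strong summits, the smallest spread among the 3 genes with 7 summits. Without replicates 1, 2 and 3, 5, 5 and 4 optimal summits were found in both others.

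Its relative Optix (FBgn0025360, chromosome arm 2R, 8031283 to 8042529, plus strand), held 3 summits, all upstream and all nearest to Optix. The strongest was 287 bp before the start site (signal value 368, rank 2234) and ranked 2654, 1703 and 3542 in replicates 1 to 3. The next was 6719 bp upstream (signal value 347, rank 2500), with ranks of 4936, 2483 and 2207. Both were found in every replicate. The third, 85 bp before the start site, was weaker (signal value 194) and was missing from the strongest peaks of replicate 3. In contrast to so, the body of Optix held no optimal summit, and its best pooled summit there ranked 17030.

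Knot, also called Collier, is the COE family protein encoded by kn (FBgn0001319, chromosome arm 2R, 14772650 to 14807061, minus strand). All 3 summits of kn were nearest to a start site of another gene. They lay 52 bp upstream of a start site of the insulator gene BEAF-32 (signal value 258, rank 4363), 223 bp downstream of one of Spred (signal value 209) and 178 bp upstream of one of hui (signal value 205). The hui summit was also 1180 bp upstream of the nearest start site of kn. The gene body of 34.4 kb held no optimal summit, and the best of its 15 pooled summits ranked 7498, below the end of the optimal list. The replicates were unequal. The BEAF-32 summit ranked 8081, 5127 and 2548 in replicates 1 to 3, the Spred summit 23044, 8570 and 2165, and the hui summit was in the strongest peaks of none. The numbers of strong summits were 0, 3 and 3. Without replicate 1, only 1 optimal summit was found in both others, and without replicate 2 or 3 none was.

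**Figure D3:**
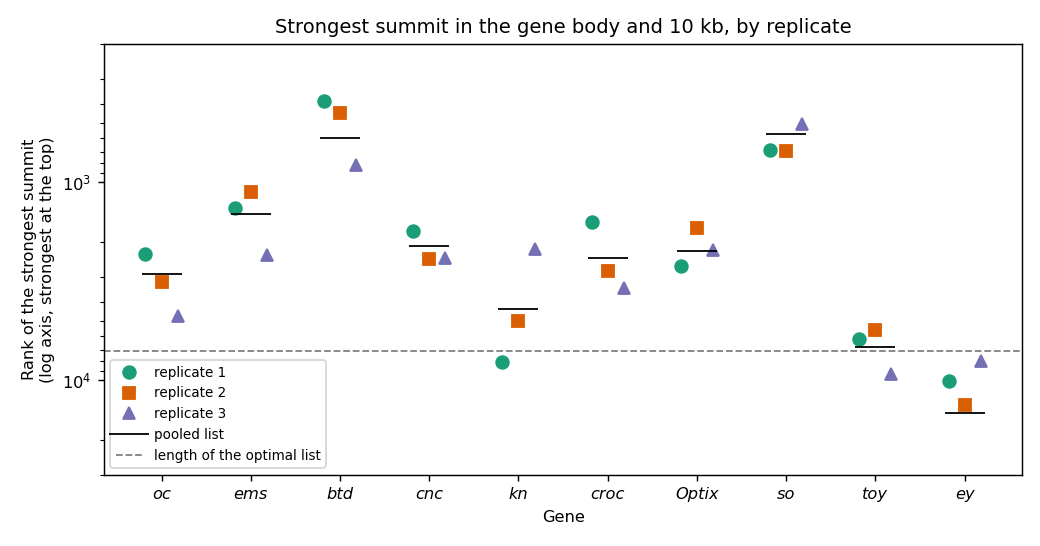
Rank of the strongest summit in the gene body and 10 kb either side in the peak list of each replicate (coloured symbols) and in the pooled list (black bars), on a log axis with the strongest at the top. The symbols of btd and so stand highest, all 3 of ey lie below the dashed line at the length of the optimal list (7129), and those of kn spread from 2165 to 8081. The summits ranked for btd lie nearest to start sites of nej.

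Most of the genes had a summit at their own start site. This count was made after the positions had been seen. An optimal summit within 500 bp of an own start site was present for 7 of the 10 genes, against 18.4% of all genes. These were oc, ems, btd, cnc, croc, Optix and so, whereas kn, toy and ey had none. In the strongest peaks of replicates 1 to 3 the number was 8, 6 and 4, a mean of 6 ± 2 (SD, n = 3). The 8 of replicate 1 included toy. When the summit had to be found in all 3 replicates, the number was 3 (oc, cnc and Optix). When it had to be found in both others, it was 3 without replicate 1, 4 without replicate 2 and 5 without replicate 3, against 12.2%, 12.1% and 12.6% of all genes. No share of all genes is given here for single replicates or for all 3 together. The same 7 genes were those with a summit to which they were the nearest gene, 27 of the 41 summits in all. The remaining 14 lay nearer to another gene.

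Outside start sites the summits stood mostly in intergenic sequence. Promoters, taken as 500 bp to either side of the start sites of coding transcripts, held 16 of the 41 (39.0%), against 37.0% of all optimal summits. Intergenic sequence held 15 (36.6%), against 19.96%, and introns 9 (22.0%), against 40.7%. The last was in a 5' UTR. None lay in a coding exon or a 3' UTR, which held 0.449% and 0.884% of all optimal summits. By place, 20 summits were upstream of their gene, 10 in its body and 11 downstream. Of 32 pairs of neighbouring summits within a gene, 7 were 199 to 204 bp apart and the next closest 743 bp. No optimal summits anywhere were closer than 199 bp, and 14.7% of all neighbouring pairs were within 250 bp. Joined at that distance, the 41 summits made 34 regions, and no gene kept 7. Just beyond the limit of 10 kb, 8 further summits lay 10 to 15 kb from these genes. Among them were a pair beside oc, at 10700 and 10899 bp (signal values 367 and 217), and a pair 13836 and 13637 bp from ems that was nearer to its paralog E5 (signal values 865 and 364).

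**Figure D4:**
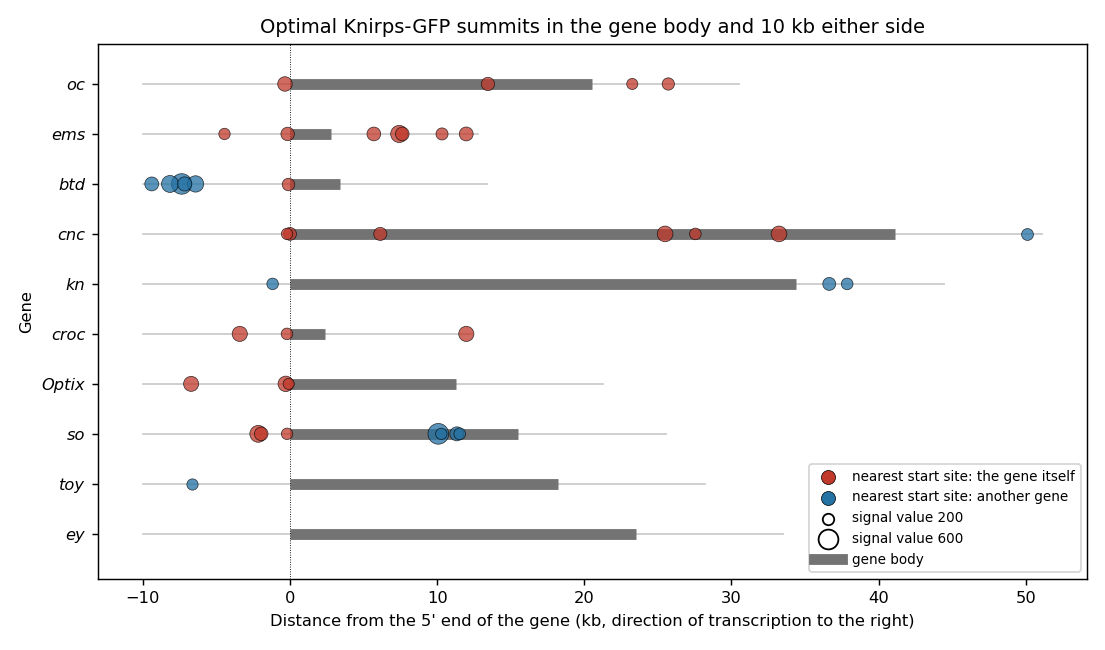
Position of each optimal summit (circles, area in proportion to the signal value) along the 10 genes, in kb from the 5' end in the direction of transcription, with the gene body in grey. Red circles have the gene itself as the nearest start site and blue ones another gene, as for 5 of the 6 summits of btd, all 3 of kn and the 1 of toy.

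The 8 words were counted in the window of 100 bp to either side of each summit, both strands included, as a description of the letters there and not of bound factors. Summits 199 to 204 bp apart have windows that lie next to each other, so they are not separate places in the genome. The Knirps core AGAGCA was in 3 of 41 windows (7.32%), 1 each at oc, btd and cnc, against 14.1% of all optimal windows. In windows 600 bp away toward higher coordinates it was in 6 of 41 (14.6%), against 9.71% of those of all optimal summits. The matches were centred at -54.5 bp from the summit in oc, -75.5 bp in nej and 12.5 bp in the 5' UTR of cnc, where negative offsets are toward lower coordinates. With 50 bp on either side, 2.44% of the windows had it, against 7.31% of all optimal windows, and with 200 bp 24.4%, against 25.1%.

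The commonest of the words was GAGAG, the letters bound by the GAGA factor, which was in 20 of the 41 windows (48.8%), against 37.1% of all optimal windows. It is the shortest of the 8 words and was also the commonest over all optimal windows. In the windows 600 bp away it was in 5 of 41 (12.2%), and in 22.2% of those of all optimal summits. It was in all 4 windows of oc, in 4 of 7 of cnc, in 2 of 3 of both croc and Optix, in 3 of 7 of both ems and so and in 2 of 6 of btd. The windows of kn and toy had none. At promoters 9 of 16 windows held it, against 38.2% of the promoter windows of all optimal summits. Of the 16, 10 were at own start sites, and 8 of these held it, for oc, ems, btd, croc, cnc and Optix. The 8 include a pair of windows of cnc and a pair of Optix that lie next to each other. No share over the own start sites of all genes is given here. The printed sites before croc, oc, cnc and btd held 14, 10, 7 and 5 overlapping matches. In 4 of the 41 windows (9.76%) there were 5 or more, against 4.07% of all optimal windows. With 3 or more matches there were 5 windows (12.2%), against 10.1% of all optimal windows. The signal values of windows with and without the word had medians of 275 and 287.

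The words of families to which some of the proteins themselves belong had shares on both sides of those over all optimal windows. The word TAATCC of Bicoid-class homeodomains, which include Orthodenticle, was in 1 window, beside nej (2.44%, against 4.36% of all optimal windows). The forkhead word TAAACA was in 7 (17.1%, against 21.5%), and none of these was at croc. The sine oculis family word TGATAC was in 2 (4.88%, against 3.97%), both inside nej, and the Sp word GGGCGG in 5 (12.2%, against 9.02%). The COE word CCCNNGGG was in none, and in 1.54% of all optimal windows. The word CAGGTA of the early activator Zelda was in 2 (4.88%, against 7.71%). The median share of G and C was 47.8% in these windows and 45.3% in all optimal windows.

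Other genes of the same programmes, from a list of 19, also mostly had summits. Summits were found for 16 of the 19, against 59.8% of all genes, with a median of 2 per gene. At own start sites they were found for 11, against 18.4%. Among 5 relatives of the 10 genes (Sp1, E5, Six4, eyg and toe) 4 had a summit, as had 6 of 7 further eye determination genes (eya, dac, tsh, tio, dan, danr and hth) and 6 of 7 head or brain patterning genes (lab, Dfd, hbn, Rx, otp, Lim1 and D). The homeobox gene otp had the strongest (signal value 945, rank 203), although the start site nearest to it was that of Cib2, 4642 bp away. The homeobox gene hth, which is 132 kb long, followed with 22 summits, the strongest 237 bp upstream of one of its start sites (signal value 625, rank 654). Next was Six4, a relative of so and Optix, whose strongest summit was nearest to Pcif1 (signal value 570, rank 822). The genes toe, danr and hbn had none, and their best pooled summits ranked 28625, 9733 and 14329. The strongest summits in the territories of so (rank 571) and btd (rank 600) stood between those of otp and hth in this order. The start sites nearest to them were those of CG11145 and nej. The strongest at the other 8 genes ranked from 1440 to 14624.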

How the data were processed

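ChIP-seq for GFP-tagged Knirps was done on 3 samples of whole embryos, with chromatin sheared to 200 to 800 bp, per the labels. Peaks with background were called by the authors for every replicate and for the pool, always against 1 control alignment, and thresholded by irreproducible discovery rate into the optimal list, per the deposited notes. The aligner, caller and versions, and that threshold, are not given in the sources used here. Signal values in the deposited lists are a score of the authors on an unstated scale. All 7129 optimal peaks were tested to be the strongest 7129 of the 30000 pooled peaks. Read numbers are unknown.

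Summits are deposited offsets from the peak start, and coordinates are 1-based dm6. Genes and start sites came from Ensembl release 115 and sequence from RefSeq Release 6, whose arms hold all the peaks. Noncoding genes were not used. Windows that overlap an untranslated region, and those of 1 arm, are not printed. Python 3.11.15, numpy 2.4.6 and pandas 2.3.3 were used, and the counting code was tested on simulated data with known answers.

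The 10 genes, the 19 other genes and the 8 words were chosen with earlier results of these data known. All 10 genes are named, each with its 4 strongest summits at most, and further summits were named after their values were seen. Of the 19, the 3 with the strongest summit and all without 1 are named. There is 1 group, so no test was made and no p-value is given. The dm3 lists were not used.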

Additional observations from a re-analysis of the deposited data

How the results depend on the processing

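The number of genes with a summit, 9, was 8 with 5 kb (45.4% of all genes), 8 with 2 kb (32.4%), 7 by the nearest start site (22.1%), 7 among the strongest 3564 peaks (42.7%), 10 in the whole pooled list (80.8%) and 7 to 8 when a replicate was left out (48.2% to 50.7%). The number of summits, 41, was 29 with 5 kb or by the nearest start site, 20 with 2 kb, 17 among the strongest 3564 peaks, 34 after joining and 153 in the whole pooled list. It ran from 20 to 28 when a replicate was left out. Here and throughout, leaving out a replicate also requires a summit in both others, which by itself lowers counts: 18 summits were in all 3. The share found in all 3 replicates, 43.9%, was 82.4% among the strongest 3564 peaks, 29.3% within 50 bp, 65.9% within 200 bp or by any overlap, 80.5% in the whole replicate lists and 48.8% to 68.3% when a replicate was left out. Of the 10 genes, 7 had a summit in all replicates, against 44.9% of all genes. The number was 4 with a territory of 2 kb and 6 by the nearest start site. No share of all genes is given here for those 2 settings. The share of windows with AGAGCA, 7.32%, was 10% with 2 kb, 2.44% in windows of 50 bp either side (7.31% over all optimal windows), 24.4% in those of 200 bp (25.1%), and 4.55% to 10.7% when a replicate was left out. Genes with a summit at an own start site numbered 7, 3 among the strongest 3564 peaks (10.1% of all genes) and 3 to 5 when a replicate was left out, against 3 when all 3 replicates were required. This count and the joining were chosen after seeing the data. Smaller territories and fewer peaks hold fewer summits by construction, and wider distances match more. For AGAGCA, 1 window is 2.44% of 41. No paired analysis was possible because there is 1 group and no test. Unknown depth limits statements on genes without a summit.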
